A study of Mus musculus with 16 samples.

Results

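The deacetylase SIRT1 was mapped by ChIP-seq in a pair of wild-type macrophage libraries, and the peaks of both were compared here to show how far separate SIRT1 libraries coincide. All peaks of both lists on chromosomes 1 to 19 and X were taken, 74346 in the library named Ezh2-WT and 56129 in the library named p53-WT, together 130475 of the 369162 peaks in the 9 lists of the series. The cells of both libraries were untreated primary macrophages of C57BL/6 mice with a wild-type genotype, grown from the marrow of adult animals for 5 days in medium conditioned with M-CSF, and the same SIRT1 antibody was named for both. The names mark them as controls of Ezh2 and p53 knockout cells, in which SIRT1 was mapped in untreated cells as well. H3K27ac and H3K27me3 came from untreated wild-type C57BL/6 macrophages, as did the EZH2 and p53 lists used below. The series has 16 samples, of which 7 are inputs, and each group has 1 library, so no difference below has a replicate check. How the knockouts were made, how many animals entered a library and whether the wild-type libraries share animals are not stated in the labels.

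SIRT1 removes acetyl groups from histones and from other proteins and uses NAD+ to do so. It has no sequence-specific DNA-binding domain of its own and is known to reach chromatin through partner proteins. In macrophages it is known to deacetylate the NF-kB subunit p65, which dampens inflammatory genes, and p53 is another of its classical substrates. H3K27ac, an acetylated lysine of histone H3, marks active promoters and enhancers, and H3K27me3, its trimethylated form laid down by EZH2, marks genes silenced by Polycomb.

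Of the places compared, transcript starts had the highest share of SIRT1 peaks found in both libraries, although most shared peaks lay elsewhere (423 of 2960 overlapping pairs were at starts), and 4 promoters under both are printed as examples. Of 32585 RefSeq promoters (250 bases before to 50 bases after a transcript start, GRCm38.p6), 205 held bases under peaks of both libraries. For the choice of examples, promoters of a single autosome were left out, and 158 of the remaining promoters belonged to genes with a formal symbol. In 59 of the 158, both peaks covered at least 150 of the 300 bases. The 4 of these with the highest lower-of-2 fold are shown, with 1 promoter for each pair of peaks. Fold is the authors' ratio of fragments at the summit (the highest point of a peak) to the local background, with a pseudocount of 1 on each. Letters run 5′ to 3′ on the strand of the gene, and capitals mark the GC box GGGCGG or its reverse complement CCGCCC.
Chgb: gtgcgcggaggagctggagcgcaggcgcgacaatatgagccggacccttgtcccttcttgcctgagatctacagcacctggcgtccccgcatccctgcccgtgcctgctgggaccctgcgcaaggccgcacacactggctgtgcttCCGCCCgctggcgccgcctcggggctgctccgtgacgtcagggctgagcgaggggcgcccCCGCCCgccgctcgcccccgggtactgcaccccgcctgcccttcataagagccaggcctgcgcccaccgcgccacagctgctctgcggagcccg
Rpgrip1l: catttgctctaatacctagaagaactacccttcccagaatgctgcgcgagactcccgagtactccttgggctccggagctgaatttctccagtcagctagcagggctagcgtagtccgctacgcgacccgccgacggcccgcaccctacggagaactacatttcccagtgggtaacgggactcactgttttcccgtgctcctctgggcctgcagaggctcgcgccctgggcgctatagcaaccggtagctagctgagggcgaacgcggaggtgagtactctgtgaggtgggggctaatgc
Usp20: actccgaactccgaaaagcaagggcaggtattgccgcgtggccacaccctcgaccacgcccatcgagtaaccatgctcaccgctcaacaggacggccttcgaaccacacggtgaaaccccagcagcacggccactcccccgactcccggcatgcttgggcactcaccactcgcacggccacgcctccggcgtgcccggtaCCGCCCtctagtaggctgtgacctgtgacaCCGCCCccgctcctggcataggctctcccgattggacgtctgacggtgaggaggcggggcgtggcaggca
Ccdc125: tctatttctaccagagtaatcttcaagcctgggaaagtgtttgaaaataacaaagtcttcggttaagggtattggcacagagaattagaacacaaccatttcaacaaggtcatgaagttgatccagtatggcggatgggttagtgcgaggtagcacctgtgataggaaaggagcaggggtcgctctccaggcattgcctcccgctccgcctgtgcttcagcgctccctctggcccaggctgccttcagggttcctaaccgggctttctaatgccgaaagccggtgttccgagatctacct

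The Chgb promoter (chr2:132781392-132781691, plus strand) belongs to the gene of chromogranin B, a protein of neuroendocrine secretory granules. It had SIRT1 peaks of 3.85-fold in Ezh2-WT and 3.48-fold in p53-WT, with 219 bases under both, and it lay in H3K27me3. The Rpgrip1l promoter (chr8:91313173-91313472, minus strand), of a gene for a protein at the base of cilia, had 4.40-fold and 3.48-fold peaks with 207 bases under both. Usp20, which encodes a deubiquitinase, had 4.40-fold and 3.37-fold peaks, and all 300 bases of its promoter (chr2:30982029-30982328, plus strand) lay under both. Ccdc125 (chr13:100669231-100669530, plus strand) had 3.30-fold and 3.94-fold peaks with 237 bases under both. Such folds can rest on few fragments. Elsewhere in the lists, Ezh2-WT peaks of 3.30-fold and 4.40-fold had 5 and 7 fragments, and a p53-WT peak of 3.48-fold had 5. Chgb and Usp20 held 2 GC boxes each, Rpgrip1l and Ccdc125 held none, and none of the 4 promoters lay in H3K27ac. Their G+C content was 72.7%, 60%, 66.3% and 51.0%, with 31, 22, 28 and 11 CG pairs in the same order.

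Promoters under both libraries were richer in G and C than promoters at large. Their median G+C content was 62.7% against 53% of all promoters, and their median number of CG pairs was 23 against 7. The GC box, searched on both strands, was in 136 of the 205 (66.3%, Wilson 95% interval 59.6 to 72.5) and in 35.9% of all promoters. The E-box CACGTG, which reads the same on both strands, was in 16.1% (11.7 to 21.7) against 7.20%, and TATAAA, on either strand, was in 2.93% (1.35 to 6.24) against 13.7%. Such a match is a count of letters and not a bound site, and matches were not compared at like G+C content. Promoters met by 1 library alone lay between these: the median G+C content was 59.0% for the 1642 met by Ezh2-WT and 60% for the 1910 met by p53-WT, and the GC box was in 50.1% and 56.6%. H3K27ac peaks overlapped 16.6% of promoters under both libraries, 17.8% and 18.2% of those met by Ezh2-WT or p53-WT alone and 11.1% of all promoters. H3K27me3 overlapped 5.37% of promoters under both libraries and 15.4% of all promoters.

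Each library by itself followed promoter G+C content. Promoters were split into 4 classes of near equal size by G+C content, and in the class with the least, Ezh2-WT peaks overlapped 1.67% and p53-WT peaks 1.52%, and in the class with the most they overlapped 9.57% and 11.6%. Bases under both were found in 3 of 8438 promoters (0.0356%) of the lowest class and in 114 of 8091 (1.41%) of the highest. Over all promoters, 233 met a peak of each library anywhere in the window, where the product of both counts over their number comes to 123, a ratio of 1.89. Among promoters of like G+C content that ratio was 1.87 in the lowest class, from 4 promoters, and 1.34, 1.42 and 1.43 in the classes above it. In these 3 classes, which hold all but 4 of the 233, it was thus nearer to 1 than over all promoters together.

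**Figure D1:**
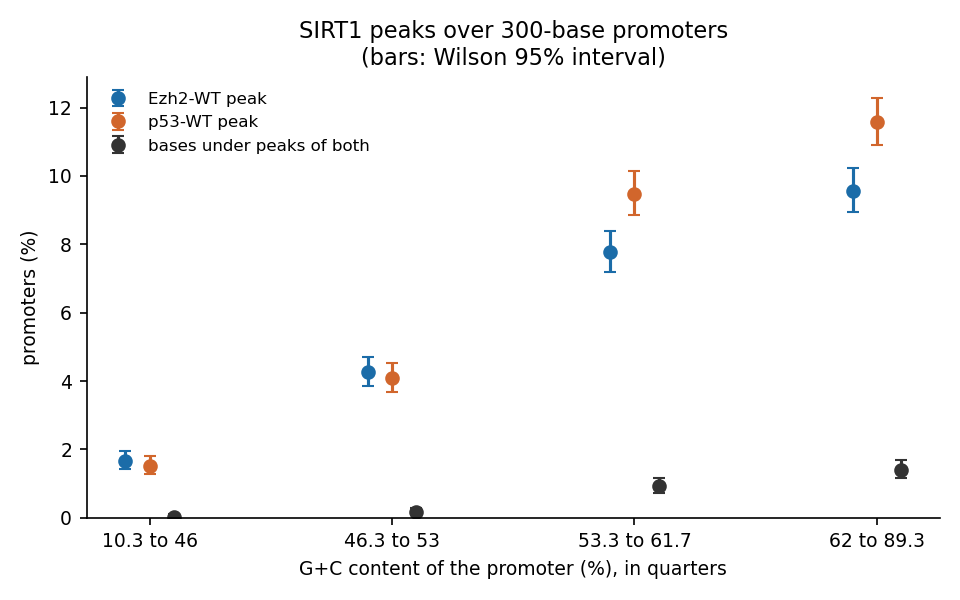
Promoters (%) with an Ezh2-WT peak, with a p53-WT peak, and with bases under peaks of both, by class of promoter G+C content. Points are shares and bars are Wilson 95% intervals. All 3 shares rise with G+C content, from 1.67%, 1.52% and 0.0356% in the lowest class to 9.57%, 11.6% and 1.41% in the highest.

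Most peaks of either list were faint. The fragments at a summit could be recovered from fold and p-value, and 91.5% of Ezh2-WT and 92.6% of p53-WT peaks rested on 3 to 5 of them, over a most common background of 0.817 and 0.722 fragments. The lists admit peaks down to a p of 0.01, the −log10 q is 0 for 92.8% and 93.7% of peaks, and q was at most 0.05 for 247 and 180. Median widths were 245 and 253 bp, and the lists covered 21.2 and 16.4 Mb, which is 0.823% and 0.636% of the mapped span of 2570 Mb. The cells were checked by the H3K27ac and H3K27me3 libraries, which are separate from the SIRT1 libraries. All 9 defining macrophage markers had H3K27ac at an end (3.57-fold to 10.8-fold) and none had H3K27me3. SIRT1 peaks were at 1 of the 9 in Ezh2-WT and at 4 in p53-WT, so the cells of these libraries were not checked directly. H3K27ac was at 0 of 4 neutrophil, 0 of 3 erythroid and 0 of 3 stromal markers and at 1 of 4 lymphocyte markers, the B-cell gene Cd79a (3.66-fold). In the longer lists used below, H3K27ac was at 24 of 25 macrophage genes, 2 of 18 lymphocyte, 2 of 14 neutrophil, 0 of 12 erythroid and 2 of 14 stromal genes, and H3K27me3 was at 1 of the 25 macrophage genes, Fcgr3.

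Few SIRT1 peaks were found again in the other wild-type library. An Ezh2-WT peak overlapped a p53-WT peak by at least 1 bp in 2939 of 74346 cases (3.95%, Wilson 95% interval 3.82 to 4.10), and a p53-WT peak overlapped an Ezh2-WT peak in 2940 of 56129 (5.24%, 5.06 to 5.43). These intervals, like all below, cover counting error only. The overlap was larger than the sequence covered would give: 2.31% of Ezh2-WT summits lay inside p53-WT peaks, which cover 0.636% of the span. That summit ratio, the share of summits inside divided by the share of sequence covered, was 3.63, and in the reverse direction it was 3.70. The sequence under both lists came to 0.581 Mb, which is 1.57% of the 36.9 Mb under either.

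Overlap between the wild-type libraries was of the same size as that of each with the p53 knockout library, and the measures gave no single order. Ezh2-WT peaks overlapped p53-KO peaks in 4.32% (4.18 to 4.47, summit ratio 3.70) and p53-WT peaks did in 4.99% (4.82 to 5.17, summit ratio 4.25). By share, Ezh2-WT thus met p53-KO more often than p53-WT (3.95%), and p53-WT met Ezh2-WT (5.24%) more often than p53-KO. By summit ratio, p53-KO stood higher for both. The Ezh2-KO list is shorter, with 18087 peaks that rest on at least 4 fragments, and it met 1.94% of Ezh2-WT and 2.24% of p53-WT peaks, with summit ratios of 6.32 and 6.80. These pairs share the wild-type libraries, and none of the differences was tested. Some classes had close values and others did not. At transcript starts 10.7% of Ezh2-WT peaks overlapped p53-WT and 10.7% overlapped p53-KO, within H3K27ac 7.70% and 8.98%, and at widths of 1000 bp or more 66.3% and 64%. At 20 fragments or more the share was 67.2% with p53-WT and 56.2% with p53-KO. For p53-WT peaks it was 75.5% with Ezh2-WT and 57.1% with p53-KO at 20 fragments or more, and 51.2% and 61.9% at 1000 bp or more.

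By place, coincidence was most frequent at transcript starts and least frequent far from genes. Of 3939 Ezh2-WT peaks with the summit within 1 kb of a transcript start, 422 (10.7%, 9.79 to 11.7) overlapped a p53-WT peak. The share was 5.42% (4.82 to 6.09) within 1 kb of other gene ends, 3.72% (3.54 to 3.91) in gene bodies, 3.31% (3.08 to 3.55) within 50 kb of a gene and 1.85% (1.52 to 2.26) farther away. Seen from p53-WT the order was the same, with 10.6%, 6.34%, 4.94%, 4.61% and 2.98%. Peak density was also highest at starts, with 71.2 Ezh2-WT and 71.7 p53-WT peaks per Mb, against 13.1 and 8.15 per Mb far from genes.

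Set against the sequence that the other list covers in the same class, starts stood lowest and distant places highest. At starts p53-WT peaks cover 2.32% of the sequence and held 6.02% of Ezh2-WT summits, a summit ratio of 2.59, whereas far from genes they cover 0.220% and held 1.08%, a ratio of 4.91. The other ratios were 3.16 at other gene ends, 2.82 in gene bodies and 3.98 within 50 kb. In the reverse direction they were 2.79, 3.30, 2.85, 3.99 and 5.11 from starts outward. The high share at starts thus went with dense coverage by both lists, and the ratio far from genes rests on 56 Ezh2-WT and 58 p53-WT summits.

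**Figure D2:**
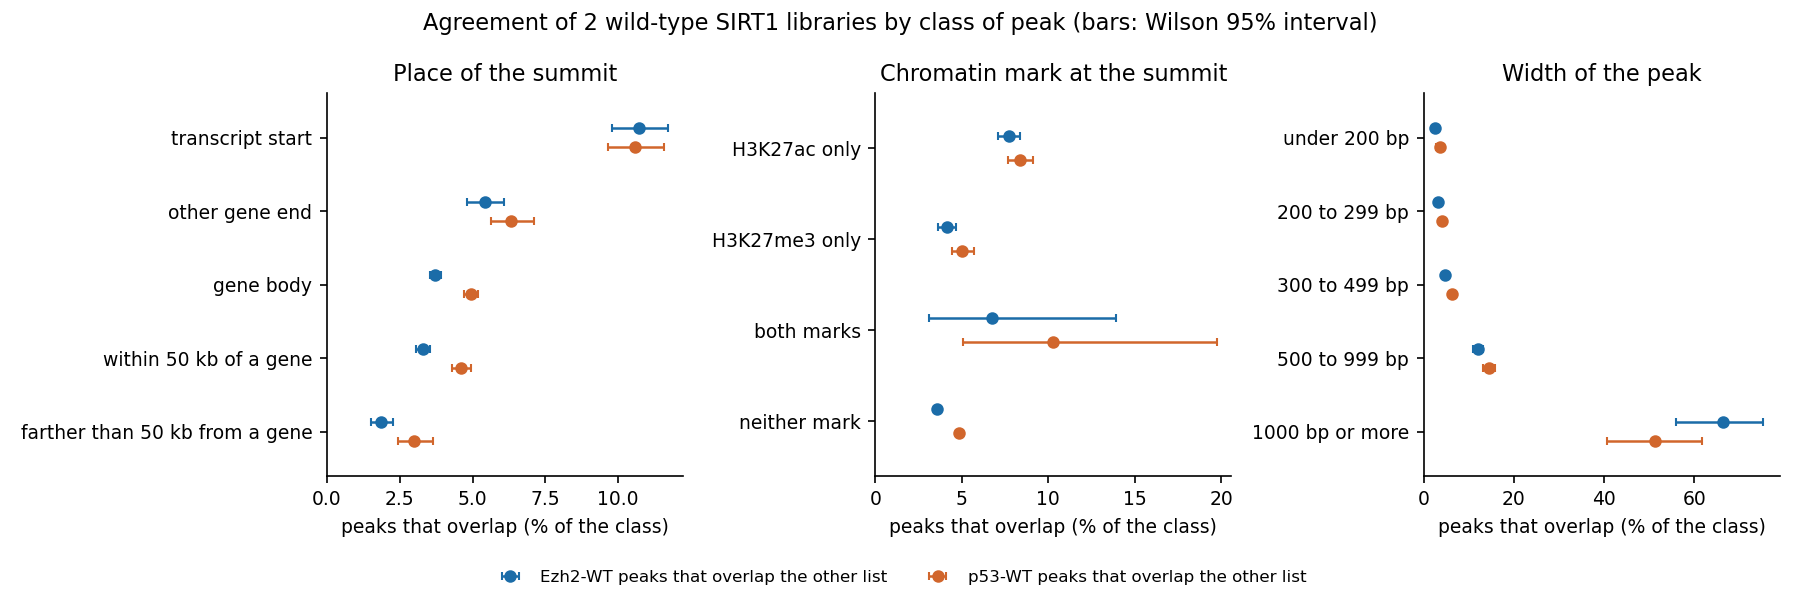
Share of Ezh2-WT peaks that overlap p53-WT peaks and of p53-WT peaks that overlap Ezh2-WT peaks (% of the class), by place of the summit, chromatin mark at the summit and peak width. Points are shares and bars are Wilson 95% intervals. Shares fall from 10.7% and 10.6% at transcript starts to 1.85% and 2.98% far from genes, and rise to 66.3% and 51.2% at widths of 1000 bp or more.

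Chromatin marks gave the same pair of orders. H3K27ac alone lay at 6389 Ezh2-WT summits (8.59% of the list) and H3K27me3 alone at 5483 (7.37%), while 62385 (83.9%) lay in neither mark. Overlap with p53-WT was 7.70% (7.07 to 8.38) in H3K27ac, 4.12% (3.63 to 4.68) in H3K27me3 and 3.55% (3.41 to 3.70) in neither. From p53-WT the shares were 8.37%, 5.03% and 4.84%. Summits with both marks were few, 89 and 68, with 6 and 7 overlaps. The summit ratio ran the other way, at 1.58 in H3K27ac, 2.32 in H3K27me3 and 3.81 in neither mark, and at 1.71, 2.31 and 3.85 from p53-WT. Acetylated sequence was where SIRT1 peaks were densest (89.0 and 82.5 per Mb, against 26.3 and 19.3 in neither mark) and where a summit of 1 library was nearest to a share set by coverage alone.

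The marks were then compared within places, widths and strengths. At starts with H3K27ac, 92 of 724 Ezh2-WT peaks (12.7%, 10.5 to 15.3) overlapped, and at starts with neither mark 291 of 2706 (10.8%). Their summit ratios were 1.28 and 3.06. In gene bodies the shares were 6.92% with H3K27ac and 3.33% with neither mark, and the ratios 1.47 and 2.93. Among faint Ezh2-WT peaks of equal strength the share in H3K27ac was also the higher, with 7.79% against 3.11% at 4 fragments and 8.62% against 3.96% at 5. At 20 fragments or more there were too few to compare, with 2 of 5 Ezh2-WT peaks in H3K27ac against 40 of 58 in neither mark, and 2 of 2 p53-WT peaks against 34 of 46. Among peaks of 500 to under 1000 bp the shares in H3K27ac and in neither mark were 13.1% (10.3 to 16.6) and 12.1% (10.9 to 13.4), whose intervals overlap.

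When only peaks with a q up to 0.05 were kept in both lists, the share in H3K27ac was below that of the whole list, from few peaks: 1 of 29 Ezh2-WT summits in H3K27ac overlapped (3.45%, 0.611 to 17.2, an interval that holds the value of the whole list), against 15.4% of all 247, and 1 of 25 p53-WT summits did, against 19.4% of all 180. Gene ends also fell below the whole list from the p53-WT side, at 5 of 42 (11.9%), but not from the Ezh2-WT side, at 7 of 39 (17.9%). Against the whole p53-WT list, 9 of 29 Ezh2-WT peaks in H3K27ac overlapped, beside 80 of all 247.

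**Figure D3:**
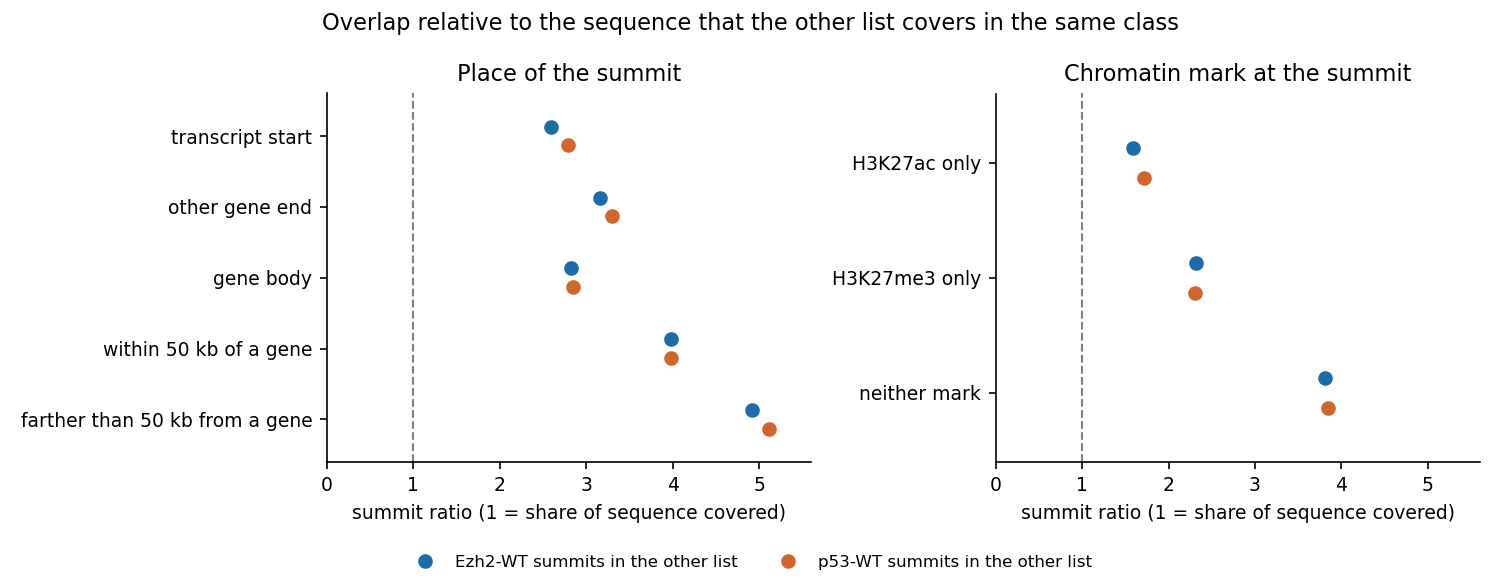
Summit ratio (the share of summits of a list inside peaks of the other list, divided by the share of that class of sequence that the other list covers) by place and by chromatin mark, for Ezh2-WT and p53-WT summits. The dashed line marks 1. Ratios rise from 2.59 and 2.79 at transcript starts to 4.91 and 5.11 far from genes, and from 1.58 and 1.71 in H3K27ac to 3.81 and 3.85 in neither mark.

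Wide peaks were found again far more often than narrow ones. Overlap rose from 2.39% of Ezh2-WT peaks under 200 bp to 3.16% at 200 to under 300 bp, 4.73% at 300 to under 500 bp, 12.1% at 500 to under 1000 bp and 66.3% (59 of 89, 56.0 to 75.3) at 1000 bp or more. From p53-WT it rose from 3.59% through 4.09%, 6.23% and 14.4% to 51.2% (43 of 84, 40.7 to 61.6). A wide peak has more bases to meet another. With windows of 100 bp either side of the summit, 6.42% of Ezh2-WT peaks of 500 bp or more overlapped, against 13.4% with whole peaks. Over all Ezh2-WT peaks these shares were 2.73% and 3.95%. The summit ratio, here against coverage of the whole span, was 2.43 under 200 bp and 9.34 at 500 to under 1000 bp for Ezh2-WT. For p53-WT it was 2.86 and 9.45. How much of the rise goes with width itself was not tested. Peaks under 200 bp made up 11.6% of Ezh2-WT and 3.03% of p53-WT, whose narrowest peaks are 192 and 198 bp.

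The strength of a peak went with its recurrence in the same way. Overlap was 2.85% of Ezh2-WT peaks with 3 fragments, 3.53% with 4, 4.44% with 5, 5.85% with 6, 9.84% with 7 and 18% with 8 or 9. It reached 41.2% (35 of 85, 31.3 to 51.8) at 10 to 19 fragments and 67.2% (43 of 64, 55.0 to 77.4) at 20 or more. From p53-WT the shares ran 3.79%, 4.86%, 5.82%, 8.76%, 13.0%, 18%, 42.9% and 75.5% (37 of 49, 61.9 to 85.4). Peaks with 8 or more fragments were 410 in Ezh2-WT and 284 in p53-WT. In Ezh2-WT, 62.4% of the shared and 40.4% of the unshared ones had a local background above 1.5 times the most common value. In p53-WT these were 78.9% and 49.7%. Among all peaks of Ezh2-WT and p53-WT, 1.32% and 6.92% had such a background. The shares by fragments were not recomputed without these peaks.

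**Figure D4:**
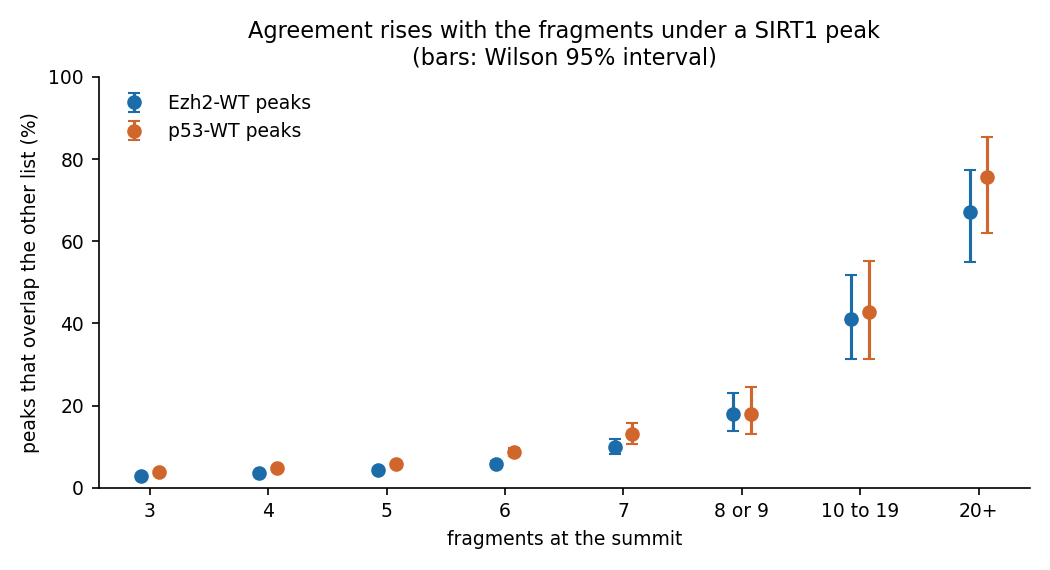
Share of Ezh2-WT and p53-WT peaks that overlap the other list (%), by fragments at the summit, with Wilson 95% intervals as bars. Shares stay at or below 13.0% up to 7 fragments and reach 67.2% and 75.5% at 20 or more. Many peaks with 8 or more fragments had a raised local background.

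Shared peaks differed from the rest in their other neighbours. Of the 2939 Ezh2-WT peaks found in p53-WT, 10.1% (9.04 to 11.2) also overlapped Ezh2-KO and 15.1% (13.8 to 16.4) p53-KO peaks, against 1.60% and 3.88% of the other 71407. H3K27ac peaks overlapped 20% of the shared and 9.61% of the other peaks, H3K27me3 peaks 9.08% and 8.49%, and EZH2 or p53 peaks 1.91% and 0.781%. The median width was 287 bp against 244 bp. Peaks that met all 3 other SIRT1 lists were 148 in Ezh2-WT and 146 in p53-WT, with median widths of 669 and 618.5 bp. EZH2 or p53 peaks overlapped 10.1% and 10.3% of them, against 0.752% and 0.908% of peaks that met no other SIRT1 list. H3K27ac peaks overlapped 10.1% and 12.3% of them. That compares with 21.7% and 24.2% of peaks that met 2 other lists, and 9.02% and 11.2% of those that met none.

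Within shared pairs, the faint ones coincided loosely. There were 2960 overlapping pairs, with a median distance between summits of 139 bp (quartiles 61 and 246), and 21.0% of pairs had summits within 50 bp. Among the 2803 pairs with under 8 fragments in both, fold in 1 library hardly went with fold in the other (Spearman rho 0.019 across pairs, n = 2803). Among the 80 pairs with 8 or more fragments in both, rho was 0.494 for fold, 0.935 for fragments and 0.941 for local background, and the median distance between summits was 57.5 bp. Choosing pairs that are strong in both leaves out the 77 with 8 or more fragments in 1 library alone, in which rho was -0.65 for fragments and -0.47 for fold. Over all 2960 pairs rho was 0.153 for fragments and 0.065 for fold. Pairs are not independent, since some share a peak or a neighbourhood, and these correlations are descriptions across pairs.

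**Figure D5:**
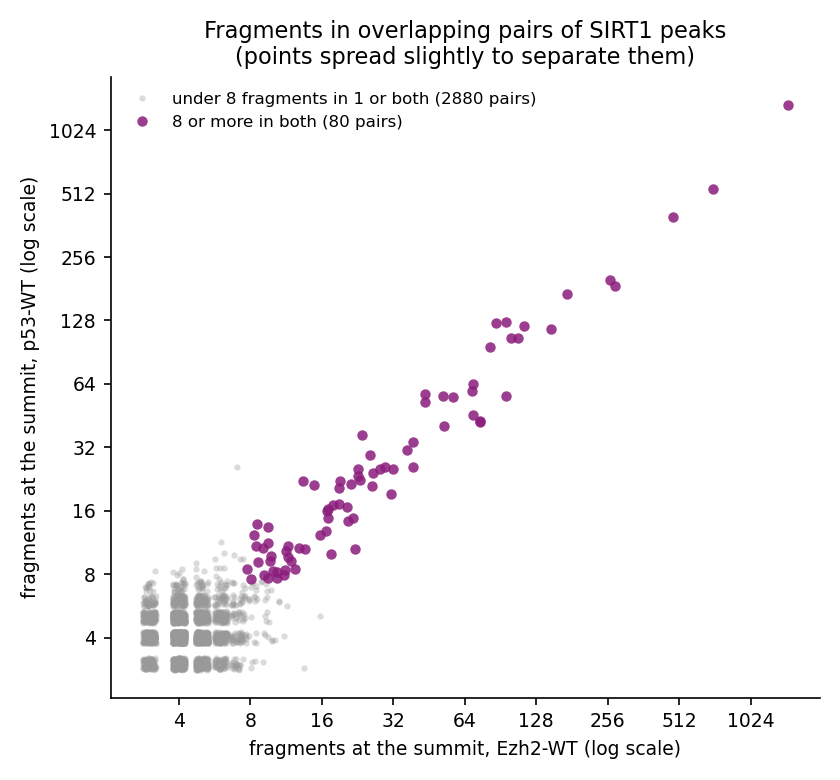
Fragments at the summit in Ezh2-WT and p53-WT (log scales) for 2960 overlapping pairs of SIRT1 peaks, each point a pair. The 80 pairs chosen for 8 or more fragments in both reach 1442 and 1432 fragments along the diagonal, and the other pairs, among them the 77 strong in 1 library alone, form a block at low values.

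Many of the 80 strong pairs lay in a few clusters. Neither mark was at 68 of the 80, a share close to the 83.9% and 81.5% of all Ezh2-WT and p53-WT peaks, H3K27me3 alone at 8 and H3K27ac alone at 4, and 4 of the 80 were at transcript starts. Of the 80, 62 overlapped an Ezh2-KO peak, 54 a p53-KO peak, 46 both, and 19 an EZH2 or p53 peak, so some of these places were met with other antibodies too. Their local background was high, with medians of 5.30 and 5.06 fragments against 0.817 and 0.722 for all peaks. Over all peaks, leaving out those with a background above 1.5 times the most common value, an alternative chosen after seeing the data, lowered the share from 3.95% to 3.48% in Ezh2-WT and from 5.24% to 4.88% in p53-WT.

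The largest group, 21 of the 80 pairs, lay on chromosome 6 between 47654803 and 47778243, beside the genes of the small cytoplasmic RNAs Rn4.5s and Rny3. The megabase from 47 Mb of this chromosome had the most shared peaks of any, 20 of its 56 Ezh2-WT peaks. The strongest pair there had 7.12-fold (42 fragments) in Ezh2-WT and 11.7-fold (56 fragments) in p53-WT. Other groups were 8 pairs on chromosome 8 between 20070123 and 20682610, 5 on chromosome 17 between 39843114 and 39848717 beside the ribosomal RNA gene Rn18s-rs5, 4 on chromosome 9 between 3000892 and 3024608, and 4 on chromosome 10 between 3109496 and 3116922. The first chromosome had 4 pairs between 171063767 and 171082179, among transfer RNA genes next to the Fc receptor gene Fcgr3. On chromosome 2, at 98666576, 1442 fragments in Ezh2-WT met 1432 in p53-WT, yet the folds were only 3.28 and 3.29.

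Some of the 10 pairs with the highest lower-of-2 fold lay in single genes. On chromosome 9 at 3000892 the folds were 8.73 and 8.86, and on chromosome 4 at 118547205, 2284 bp from Tmem125, they were 9.87 and 7.34. Inside Ulk4, which encodes a kinase-like protein, the folds were 5.46 and 5.62 in H3K27me3, and 2 further Ulk4 pairs were wider than 1000 bp in both libraries. Uxs1, the gene of UDP-xylose synthase, had 5.85 and 5.10. Pdzk1, which encodes a scaffold protein, had 4.95 and 5.23, and Copg2, of the COPI coat, had 4.95 and 6.18. A pair 32069 bp from the endosomal gene Eea1 had 4.95 and 7.55, and a second pair on chromosome 9, at 3020828, had 5.15 and 4.89. Of the 16 pairs that were at least 1000 bp wide in both libraries, 15 overlapped p53-KO and 12 Ezh2-KO. An EZH2 or p53 peak overlapped 5 of the 16, against 2.06% of all pairs. On the first chromosome 3 of the 16 share a single p53-WT peak of 4603 bp. The 16 included places in Nsmce2, of the SMC5/6 complex (3.85 and 5.62), in Klhdc4 (5.50 and 4.65), in Dnajc3, a co-chaperone of the endoplasmic reticulum (4.40 and 4.07), and in the Golgi transport gene Golt1b (3.85 and 4.65).

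Cdkn1a, the p53 target that encodes the cell-cycle inhibitor p21, also had a pair of the 10 beside it. On chromosome 17 an Ezh2-WT peak from 29101704 to 29102624 (5.31-fold, 9 fragments) met a p53-WT peak from 29101901 to 29102596 (5.15-fold, 8 fragments), with the Ezh2-WT peak starting 981 bp past the gene. Ezh2-KO (3.23), p53-KO (3.29), p53 (2.26) and H3K27me3 (7.95) peaks lay there too. That p53 peak rested on 6 fragments, the fewest of any peak in the p53 list, with a −log10 q of 0. Within the gene the libraries differed: Ezh2-WT had peaks of 4.40 and 3.30 and p53-WT peaks of 4.65 and 3.48, none overlapping.

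Unshared peaks held the highest folds of Ezh2-WT but not of p53-WT, whose highest, 11.7, was shared. The highest fold of either list, 36.3 with 65 fragments, was an Ezh2-WT peak on chromosome X (156174646 to 156174913), farther than 50 kb from any gene, and no p53-WT, Ezh2-KO or p53-KO peak overlapped it. Rela, which encodes p65, the SIRT1 substrate named above, came next among unshared peaks, with a 17.1-fold Ezh2-WT peak (44 fragments, −log10 q 41.2) in H3K27ac inside the gene (chromosome 19, 5646809 to 5647382). No other SIRT1 list had a peak overlapping it, and the p53-WT peaks inside Rela were both 2.90-fold and lay elsewhere. Ezh2-WT had 2 more peaks in Rela, of 6.06 (10 fragments) and 3.85 (6 fragments). In p53-WT the highest unshared peak had 8.25-fold (14 fragments), 46486 bp from Egfem1, and it overlapped peaks of both knockout lists. Of the 247 Ezh2-WT peaks with q of at most 0.05, 80 were found in the whole p53-WT list, of which 83.8% also met a knockout SIRT1 list, and 167 were not, of which 21.0% did. For p53-WT these were 65 with 84.6% and 115 with 22.6%. Background above 1.5 times the most common value was found in 40 of the 80 shared and 16.8% of the unshared peaks of Ezh2-WT, and in 69.2% and 18.3% of those of p53-WT.

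At the level of genes the lists looked alike in number and less so in identity. Of 21631 protein-coding genes, 5379 (24.9%) had an Ezh2-WT and 5321 (24.6%) a p53-WT peak within 1 kb of an end. Both had a peak at 1910 genes, where the product of the counts over all genes comes to 1323, and the peaks overlapped at 568 (2.63%). Of these 568, 346 had the pair at a listed transcript start, 122 did not and 100 have no listed start. H3K27ac was at an end of 50.2% of the 568, of 37.3% of genes with an Ezh2-WT peak, of 40.0% of those with a p53-WT peak and of 26.6% of all. Overlapping peaks were at 4.96% of genes with H3K27ac and 1.78% of genes without. H3K27me3 was at 17.1% of the 568 and 25.7% of all genes.

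The shared genes with the highest lower-of-2 fold were led by Ccdc17, with 4.40 in Ezh2-WT and 4.65 in p53-WT at its start and no H3K27ac. Sema4a, of a semaphorin family known in immune cells, had 4.40 and 4.07 with H3K27ac at 3.31. The neighbours Cert1, of ceramide transport, and Polk, of a translesion DNA polymerase, share 1 pair of 4.40 and 3.94. Further genes were n-R5s138, a 5S ribosomal RNA gene (4.18 and 4.66), Mypop and Tsc22d4 (3.85 and 4.07 each), Mtmr14 (3.76 and 3.94) and Mir6546 (5.14 and 3.60). The pair at Mir6546 lies inside Fcgr3, a gene of the macrophage list below.

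Among genes with a peak of 1 library at an end and no peak of the other within 5 kb of it, folds were higher than or close to these. In Ezh2-WT they were 4.95 at Atp6v0a2, a subunit of the vacuolar proton pump, at Btrc, at Dnajc15, at the galactokinase gene Galk1 and at Selenov, then 4.72 at Wls, 4.50 at R3hdm2, and 4.40 at the adenosine receptor gene Adora2b, at Cbl and at Celf2. In p53-WT they were 6.39 at Zfp606, 6.18 at the shared end of Arel1 and Fcf1, 5.81 at Trnt1, 5.41 at Vmn1r261 and 5.23 at Napa, Nfx1, Nynrin and Rad9b. Each of these folds came from 7 to 10 fragments, except the 46 at Wls.

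Members of the fixed gene lists were met by 1 library far more often than by both, and the counts with a peak stand beside 24.9% (Ezh2-WT) and 24.6% (p53-WT) of all genes. The 17 genes of the sirtuin and NAD pathway had 8 members with an Ezh2-WT peak, 5 with a p53-WT peak and 1 with overlapping peaks (5.88%, against 2.63% of all genes). That member was Naprt, which makes NAD from nicotinic acid (2.20 and 2.77). Of 40 genes of proteins known as SIRT1 substrates or partners, 17 and 12 had a peak and 1 overlapped, the autophagy gene Atg5 (2.75 and 3.48). The single-library shares were 47.1% and 29.4% of the 17 genes and 42.5% and 30% of the 40. Ribosomal protein genes also stood above all genes, with 14 (46.7%) and 12 (40%) of 30. Of 20 inflammasome and pyroptosis genes 4 and 8 had a peak and none overlapped, and of 29 NF-kB and LPS response genes 9 and 12 had a peak and none overlapped. Ninj1, needed for membrane rupture in pyroptosis, had 3.85 and 3.48 at different places, and the cytokine gene Tnf had 2.75 and 2.77 at different places.

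Macrophage identity genes had overlapping peaks in 3 of 25 cases: Cebpb, a transcription factor gene (2.75 and 3.48), Adgre1, which encodes the marker F4/80 (3.23 and 2.90), and Fcgr3, at the transfer RNA cluster named above (2.55 and 3.66). Interferon response genes had 3 of 20, the antiviral GTPase gene Mx1 (2.20 and 4.07) and the factor genes Irf7 (2.75 and 3.48) and Irf9 (2.70 and 2.24). All of these 6 had H3K27ac, as did 24 of the 25 and 19 of the 20 members of these lists, and Fcgr3 had H3K27me3 (9.74) as well. Lysosome and autophagy genes had 2 of 24, Atg5 and Atg12, the latter with 3.30 and 2.32. Polycomb developmental regulators had 1 of 35, Hoxb1 (3.30 and 2.25, H3K27me3 12.2), and ribosomal protein genes 1 of 30, Rpl4 (3.23 and 3.48). With 0 to 3 such genes a list, these counts are given beside the 2.63% of all genes as a description, and none was tested. Ezh2-WT and p53-WT peaks were at 7 and 12 of the 25 macrophage genes and at 5 and 8 of the 20 interferon genes. They were at 8 and 9 of the 24 lysosome and autophagy genes and at 10 and 7 of the 35 Polycomb genes.

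The marker lists of other cell types had no overlapping peaks, where 2.63% of all genes had them, and none was tested. Peaks of 1 library are again to be read beside 24.9% and 24.6% of all genes, and the neutrophil and erythroid lists were singled out after their values were seen. Of 14 neutrophil markers 5 had an Ezh2-WT peak and 0 a p53-WT peak, and of 12 erythroid markers 4 and 0. The neutrophil genes were Camp (3.85), Ngp (3.30), Ly6g and Ctsg (2.75 each) and Mmp9 (2.70), and the erythroid genes Epor, Tfrc and Ank1 (3.30 each) and Klf1 (2.75). These peaks rest on 4 to 6 fragments. Of 18 lymphocyte markers 4 and 6 had a peak, and of 14 stromal markers 2 and 4.

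Among the 10 genes fixed for inspection, overlapping wild-type SIRT1 peaks within 1 kb of an end were not found. Cdkn1a missed this rule narrowly, since the Ezh2-WT peak of the pair beside it reaches the window and the p53-WT peak begins just beyond it. Nlrp3, the inflammasome sensor gene, had 2.20 in Ezh2-WT before its start and 3.48 in p53-WT just inside, 59540694 to 59540900 and 59542198 to 59542742 on chromosome 11, and 3 Ezh2-WT peaks of 2.75 deeper in the gene. Neat1, a nuclear long non-coding RNA gene, had 3 Ezh2-WT and 4 p53-WT peaks touching it, none overlapping. The libraries did meet at 2 places within 5 kb of Neat1 (3.30 and 2.32, and 2.25 and 2.81), outside the gene. Sirt1 itself had 1 Ezh2-WT peak inside (2.75) and no p53-WT peak. Ezh2 had 4 Ezh2-WT peaks inside, of 2.20 to 3.30, and no p53-WT peak. Trp53 had peaks of 3.23 in Ezh2-WT and of 2.32 and 2.90 in p53-WT at different places in the gene. Il1b, Casp1 and Gsdmd had peaks of 3 to 5 fragments: Il1b in both libraries but at different places, Casp1 in Ezh2-WT and Gsdmd in p53-WT.

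On the scale of megabases both libraries had the same landscape. Over 2436 autosomal megabases, peak counts of Ezh2-WT and p53-WT had a Spearman rho of 0.908, against 0.845 to 0.894 for wild-type against knockout SIRT1 lists, 0.799 and 0.817 against H3K27ac, 0.807 and 0.799 against H3K27me3 and 0.711 for both against genes. Megabases share gene density and base composition, so these values describe the lists and are no test. Density ran from 24.1 Ezh2-WT peaks per Mb on chromosome 3 to 38.9 on chromosome 11, and in p53-WT from 17.3 to 32.4 on the same chromosomes. Chromosome X had only 3.07 and 2.12 per Mb. H3K27me3 peaks were densest there, with 140 per Mb against 13.9 to 44.2 on the autosomes. The H3K27me3 class above thus lies in part on X, and its values without X were not computed. Outside chromosomes 1 to 19 and X, the H3K27me3 list held 7 peaks and the H3K27ac list 29. On chromosome Y alone, Ezh2-WT held 421 SIRT1 peaks and p53-WT 194. Whether the mark and SIRT1 libraries came from animals of the same sex was not tested. The densities of SIRT1 and H3K27me3 on X therefore do not show how the 2 relate there. Ezh2-WT peaks on X overlapped in 16 of 514 cases (3.11%, 1.92 to 5.00). That share is close to the 2.95% of chromosome 16 and below the 5.22% of chromosome 17, the lowest and highest of the autosomes. The summit ratio of X was 34.4, since p53-WT peaks cover only 0.0566% of it, against 2.57 to 4.59 on the autosomes.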

How the data were processed

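Peak lists were deposited in the narrowPeak layout, 1 per immunoprecipitated library. The genome build is GRCm38/mm10, and the tools named are MACS2 and deepTools, per the submitters' processing notes. Tool versions, the aligner, filters on reads and library depths were not given in the sources used here, and the input of each library is known from its name alone. The deposited fold is a ratio of summit to local background, and the deposited −log10 columns hold p and q of each peak. The deposited score was not used in any result. Only chromosomes 1 to 19 and X were compared. Fragments and background were solved from fold and p under a Poisson model and in each wild-type list at least 99.99% of peaks gave a whole number of fragments (tolerance 0.0001 on the −log10 p).

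Overlap meant at least 1 bp. Shares have Wilson 95% intervals. No test was run, since each group has 1 library. Place classes used RefSeq gene bounds and the starts listed in the RefSeq promoter table (GRCm38.p6), in the order start, other end, body, within 50 kb, farther. Exons and introns were not told apart, since exon positions were not used here. The span runs from the lowest to the highest peak of the 9 lists on each chromosome. Overlap counting and fragment recovery were tested on simulated data.

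The members and the gene lists were chosen with earlier results of these data known. Named genes followed a rule: 10 fixed genes, the 10 shared genes with the highest lower-of-2 fold, the 10 highest of each library with no peak of the other within 5 kb, up to 4 members per list and the 10 highest pairs. Predicted gene models were passed over. Some genes that the rule names are not reported here. The printed promoters, the wide pairs, the strong unshared peaks and the neutrophil and erythroid genes beyond the rule were chosen after their values were seen. Tools were Python 3.11.15, pandas 2.3.3, numpy 2.4.6, scipy 1.17.1 and matplotlib 3.10.9.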

Additional observations from a re-analysis of the deposited data

Results flagged for a closer look

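Peaks outside the chromosomes compared were looked at because they enter none of the shares above. Chromosome Y held 421 Ezh2-WT and 194 p53-WT SIRT1 peaks, of which 2 in each list overlapped the other (0.475% and 1.03%). Unplaced sequence held 83 Ezh2-WT and 57 p53-WT peaks.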

How the results depend on the processing

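The shares below are, in order, all Ezh2-WT peaks (3.95%), all p53-WT peaks (5.24%), Ezh2-WT peaks at gene ends (7.77%), of 500 bp or more (13.4%) and in H3K27ac (7.69%), and an alternative counts as a move when it leaves the Wilson interval. With −log10 p of at least 3 in both lists they were 3.53%, 2.32%, 7.01% and, in H3K27ac, 5.87%. That threshold kept 20669 Ezh2-WT and 31366 p53-WT peaks. The most common backgrounds differ (0.817 and 0.722 fragments), so an equal p does not mean an equal number of fragments. With q of at most 0.05 they were 15.4%, 19.4%, 17.9%, 26.5% and 3.45%, the last from 29 peaks. An overlap of 50% of the shorter peak gave 2.73%, 3.62%, 5.36%, 10.8% and 4.97%, and windows of 100 bp either side of the summit gave 2.73%, 3.61%, 5.23%, 6.42% and 4.92%. Lists of equal length gave 4.31%, 4.32% and, in H3K27ac, 8.41%. A gene-end window of 5 kb gave 5.43%. Without peaks whose background is above 1.5 times the most common value, chosen after seeing the data, they were 3.48%, 4.88%, 6.59%, 11.2% and 7.03%. The other 9 of 37 values, among them all 5 without peaks that overlap EZH2 or p53, stayed within the interval. The cause of these moves was not tested. No paired analysis was possible because each group has 1 library and the labels carry no replicate numbers. Read totals were not used here, so depth could not be set equal.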
